A study of Mus musculus with 6 samples.

Results

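The transcripts described here come from 46 genes of mouse: chaperones, stress proteins, their regulators and ER degradation genes. These were chosen by gene name from the 47729 genes in the deposited tables. They fall into 23 genes of the endoplasmic reticulum (ER), 11 of the cytosol, 4 of mitochondria and the 8 subunits of the CCT ring. Each had 1 row in every table, and 45 reached the minimum level for testing, a mean of 1 TPM over the 6 libraries (TPM is a transcript's share of the library, corrected for its length). Derl3 was the member that did not. RNA was sequenced from activated CD8+ T cells of mouse spleen in 3 libraries treated with blebbistatin at 2 µM for 24 h and 3 vehicle libraries of the same cells. Blebbistatin blocks non-muscle myosin II, which contracts the actin network, and the comparison asks what changes in T cell transcripts when that contraction is inhibited. The labels give no strain, age or sex, do not say what the vehicle was or how the cells were activated, and do not state if the replicates are different mice, cultures or preparations. The p-values below reflect the scatter among these libraries alone, which may be technical. Cd8a, the CD8 alpha chain, stood at 429 ± 3.49 TPM with blebbistatin and 412 ± 3.01 TPM with vehicle (throughout, means are given with the SD of 3 libraries), and Cd4 at 0.174 ± 0.107 TPM with blebbistatin and 0.104 ± 0.0890 TPM with vehicle, so the level of both markers was that of CD8+ T cells. These are bulk samples, in which fewer cells of a type and less RNA per cell cannot be told apart.

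Chaperones bind unfolded protein chains and help them fold, mostly in cycles driven by ATP. HSP70 proteins work with J-domain partners and nucleotide exchange factors, HSP90 proteins finish the folding of kinases and receptors, and the CCT ring encloses newly made actin and tubulin. When unfolded proteins build up in the ER, the sensors IRE1, ATF6 and PERK start the unfolded protein response, in which spliced XBP1 and cleaved ATF6 switch on ER chaperones and the degradation machinery. In the cytosol HSF1 has the corresponding role for heat shock genes. Activated T cells make large amounts of secreted and surface protein and are known to use the XBP1 branch during effector differentiation.

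Promoters of many ER chaperone genes carry the element through which that response is known to act, so these letters are shown as the context for the ER results. Promoter windows, 250 bases before to 50 bases after a transcript's start, came from RefSeq on build GRCm38.p6 and were found for 36 of the 46 members. There was no window for Hyou1, Atf6, Manf, Derl1, Hspa8, Hsp90aa1, Hsp90ab1, Hsf1, Hspa9 or Cct4. Windows were searched on both strands for the ER stress element, which is CCAAT and CCACG with 9 bases of any kind between them, and for the ER stress element II, which is ATTGG and CCACG with 1 base between them. No member held both. The first was found in 9 of 19 ER members with a window and in 0 of the 17 other members with one. Over all RefSeq windows it was found in 0.119% of 32851, in 37 genes of 27025, so these 9 members are among those 37. The matches are written 5′ to 3′ in the direction of the motif, reverse-complemented where they lay on the opposite strand, with the fixed letters in capitals.
Creld2: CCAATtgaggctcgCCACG
Syvn1: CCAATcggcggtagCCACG
Hspa5: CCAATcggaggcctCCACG
Hsp90b1, upstream element: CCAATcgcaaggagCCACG
Hsp90b1, downstream element: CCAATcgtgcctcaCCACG
Dnajc3: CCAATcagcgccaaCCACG
Calr: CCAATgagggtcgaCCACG
Canx: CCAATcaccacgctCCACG
Pdia6: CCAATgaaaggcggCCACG
Derl3: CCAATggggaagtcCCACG
Across these genes the 9-base spacer shares few letters while both ends are fixed by the search. The second element was found in 2 ER members, Dnajb11 and Herpud1, against 0.0365% of all windows.
Herpud1: ATTGGgCCACG
Dnajb11: ATTGGcCCACG
A match is a description of letters and does not show that a factor binds there.

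The 250 bases before the start are given for Creld2 and Syvn1, ER stress genes at a lower mean level with blebbistatin, for Hspa5, the textbook carrier of the element, and for Canx, which carries it and had a higher mean. They are written 5′ to 3′ on the strand of the gene in GRCm38.p6, with the element's fixed letters in capitals. In Creld2 the element lies on the opposite strand.
Creld2 (chr15:88819396-88819645, plus strand): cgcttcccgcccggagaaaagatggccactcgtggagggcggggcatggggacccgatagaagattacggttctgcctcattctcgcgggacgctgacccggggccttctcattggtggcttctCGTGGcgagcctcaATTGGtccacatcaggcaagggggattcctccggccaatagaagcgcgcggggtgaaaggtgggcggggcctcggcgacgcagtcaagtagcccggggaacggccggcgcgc
Syvn1 (chr19:6046326-6046575, plus strand): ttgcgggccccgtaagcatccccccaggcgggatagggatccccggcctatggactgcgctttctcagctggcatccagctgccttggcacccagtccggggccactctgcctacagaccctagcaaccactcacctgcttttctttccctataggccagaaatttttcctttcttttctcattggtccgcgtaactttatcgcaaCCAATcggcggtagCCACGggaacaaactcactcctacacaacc
Hspa5 (chr2:34771840-34772089, plus strand): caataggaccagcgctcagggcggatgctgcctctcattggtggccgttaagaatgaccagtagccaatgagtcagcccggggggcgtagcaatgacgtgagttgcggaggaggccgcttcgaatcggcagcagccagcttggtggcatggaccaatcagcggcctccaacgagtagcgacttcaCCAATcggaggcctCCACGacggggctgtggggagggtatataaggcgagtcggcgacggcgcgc
Canx (chr11:50325674-50325923, minus strand): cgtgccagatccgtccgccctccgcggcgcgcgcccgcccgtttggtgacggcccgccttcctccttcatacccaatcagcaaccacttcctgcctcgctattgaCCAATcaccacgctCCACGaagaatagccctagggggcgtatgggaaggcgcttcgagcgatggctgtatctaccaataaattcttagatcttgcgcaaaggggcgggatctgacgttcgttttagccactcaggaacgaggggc
The element began 126 bases before the start in Creld2, 44 in Syvn1, 65 in Hspa5 and 145 in Canx.

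Blebbistatin libraries held less transcript of 3 members, all of the ER: Xbp1, Hyou1 and Dnajb11 fell, to 0.774, 0.785 and 0.830 of the vehicle mean. No member rose. These calls, 3 of 45 tested members, came from limma on log2(TPM + 1) over all 13372 tested genes, with Benjamini-Hochberg adjustment at 0.05. Over all tested genes 1.82% were called, 0.426% lower and 1.40% higher. The median log2 fold change (blebbistatin minus vehicle) was -0.14 over 22 tested ER members, -0.07 over 11 cytosolic, -0.01 over 4 mitochondrial and 0.02 over 8 CCT members, against 0.03 over all tested genes. All 3 blebbistatin libraries lay below all 3 vehicle libraries in 10 of the 22 ER members, where 13.0% of all tested genes did so, and above them in 2, where 18.0% did (31.0% in either direction). Of the other compartments, 3 of 23 tested members were lower without overlap and 2 were higher. At an unadjusted p under 0.05 stood 13 ER members, 2 cytosolic, 0 mitochondrial and 0 CCT members, and 22.9% of all tested genes. All 3 calls were lost with no minimum level, with quantile normalization and without the trend, when 15, 12 and 12 members had an unadjusted p under 0.05. Of all genes, 49, 178 and 160 were called in these fits. Without blebbistatin 1 or 3, or vehicle 1, 2 or 3, 0 members passed, while 8 to 18 had an unadjusted p under 0.05. In the same order these fits called only 120, 3, 13, 11 and 7 of all tested genes, with 2138 to 2607 at an unadjusted p under 0.05. Without blebbistatin 2, 7 members passed, all lower (Xbp1, Hyou1, Dnajb11, Sdf2l1, Creld2, Manf and Syvn1), when 4.44% of all genes were called lower and 3.71% higher.

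**Figure D1:**
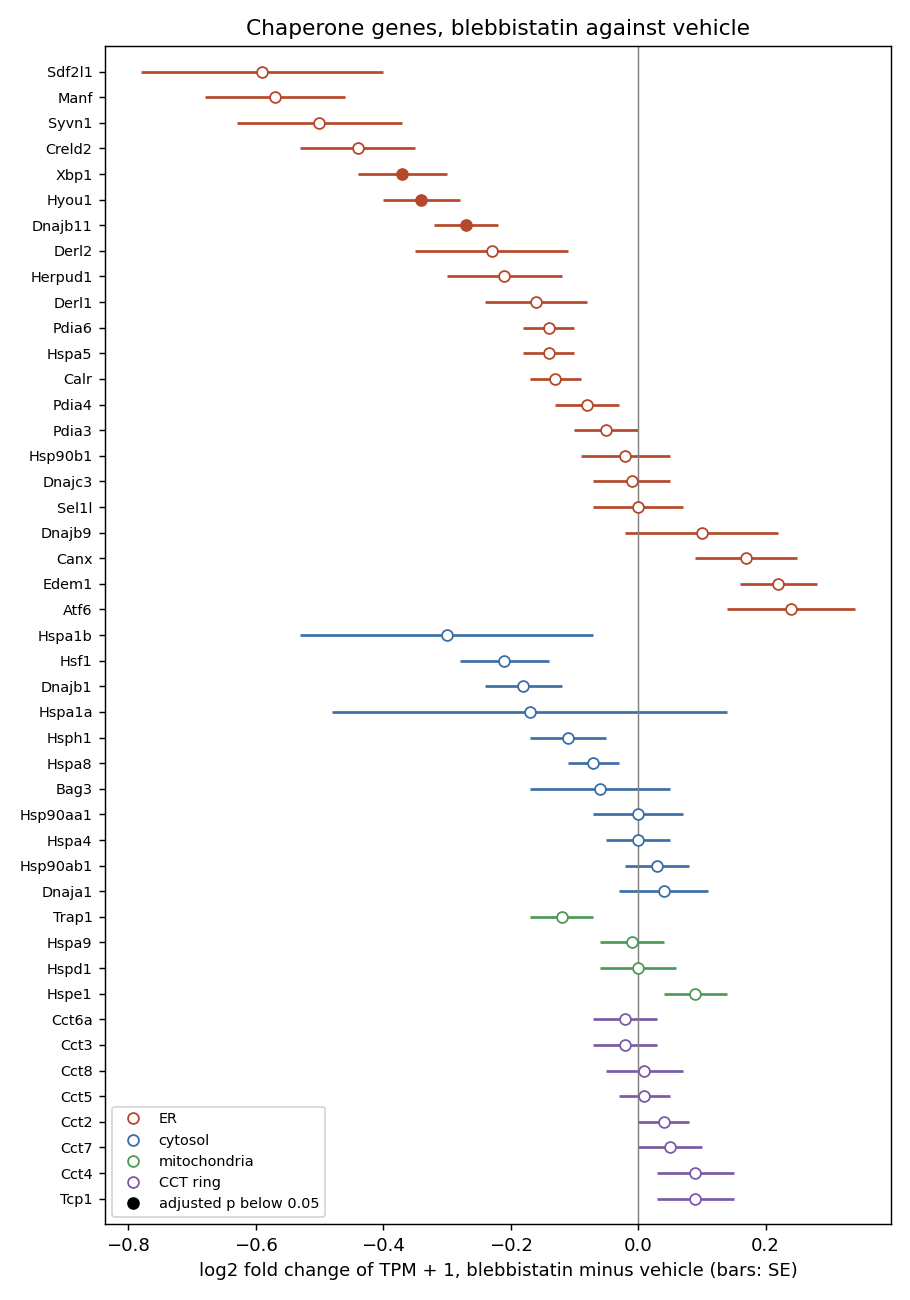
Log2 fold change of each of the 45 tested members, blebbistatin minus vehicle, on the log2(TPM + 1) scale, with bars for the standard error. Filled points are Xbp1, Hyou1 and Dnajb11, the members with adjusted p below 0.05. ER members spread from -0.59 to 0.24, while the CCT members lie between -0.02 and 0.09.

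Among the regulators of the ER response, Xbp1 was lower with blebbistatin and Atf6 was not. Xbp1, the transcription factor whose messenger RNA is spliced by IRE1, had 165, 193 and 172 TPM in blebbistatin libraries 1, 2 and 3, against 233, 224 and 228 TPM in vehicle libraries 1, 2 and 3. The groups did not overlap, and blebbistatin 2 was the nearest to vehicle. The log2 fold change was -0.37 (SE 0.07, limma adjusted p = 0.046), and it lay between -0.43 and -0.33 with 1 library left out, with adjusted p of 0.013 to 0.17. Gene tables sum the spliced and unspliced forms of Xbp1, so splicing was not measured. Atf6, a membrane-bound factor released by cleavage, had 16.9, 14.1 and 14.3 TPM with blebbistatin and 12.0, 13.3 and 12.6 TPM with vehicle. Its blebbistatin libraries were all above vehicle, but the difference did not pass (log2 fold change 0.24, SE 0.10, limma adjusted p = 0.20). Xbp1 lies on chromosome 11 at 5520659 to 5525893 and Atf6 on chromosome 1 at 170704674 to 170867771 (GRCm38), both protein-coding.

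The other sensors and effectors of the response, 16 genes of which 14 were tested, included 2 that rose and 0 that fell. Over all tested genes 1.40% were called higher and 0.426% lower. Eif2ak3, which encodes PERK, the sensor that slows translation, averaged 49.6 ± 2.33 TPM with blebbistatin and 34.4 ± 0.668 TPM with vehicle. The lowest blebbistatin value, 47.1 TPM, was above the highest vehicle value, 35.2 TPM (log2 fold change 0.51, SE 0.06, limma adjusted p = 0.019). Atf3, a factor induced downstream of PERK and by other stresses, averaged 19.0 ± 1.26 TPM with blebbistatin and 13.0 ± 0.394 TPM with vehicle (log2 fold change 0.52, SE 0.08, limma adjusted p = 0.033). Both calls were lost without blebbistatin 3 or any 1 vehicle library, when the log2 fold changes of Eif2ak3 were 0.50 to 0.55 and those of Atf3 0.49 to 0.53. Those fits called only 3 to 13 of all tested genes. Ern1, which encodes IRE1, stood at 4.50 ± 0.214 TPM with blebbistatin and 4.56 ± 0.504 TPM with vehicle, and Atf4, the main translational output of PERK, at 241 ± 14.6 TPM with blebbistatin and 256 ± 5.12 TPM with vehicle, neither past the threshold. Ddit3, the death-linked factor CHOP, had 30.2 ± 1.56 TPM with blebbistatin and 24.8 ± 0.389 TPM with vehicle (limma adjusted p = 0.09). The median log2 fold change of these 14 genes was -0.06.

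Of the ER chaperones and their partners, Hyou1 and Dnajb11 fell, both partners of the ER HSP70 encoded by Hspa5. Hyou1, an HSP110-type exchange factor, had 70.9, 74.0 and 73.1 TPM with blebbistatin and 99.2, 90.5 and 88.2 TPM with vehicle. Dnajb11, a J-domain partner, had 126, 122 and 127 TPM with blebbistatin and 154, 149 and 149 TPM with vehicle. In both genes the blebbistatin libraries lay close together and below every vehicle library. The log2 fold change was -0.34 for Hyou1 (SE 0.06, limma adjusted p = 0.046) and -0.27 for Dnajb11 (SE 0.05, limma adjusted p = 0.046). With 1 library left out, Hyou1 lay between -0.38 and -0.29 and Dnajb11 between -0.28 and -0.25, and adjusted p ran from 0.036 to 0.17 for each. Hyou1 lies on chromosome 9 at 44379490 to 44392369 and Dnajb11 on chromosome 16 at 22857845 to 22879634 (GRCm38), both protein-coding.

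Hspa5 itself, the central ER chaperone BiP, had 304, 314 and 301 TPM with blebbistatin and 332, 343 and 339 TPM with vehicle. The groups did not overlap, but the difference was small and did not pass (log2 fold change -0.14, SE 0.04, limma adjusted p = 0.14). The log2 fold change farthest from 0 among all members was that of Sdf2l1, a component of BiP complexes in the ER, with 98.0, 177 and 136 TPM in the blebbistatin libraries and 199, 204 and 198 TPM in the vehicle libraries. Its blebbistatin libraries disagreed widely, from -1.02 to -0.18 against the vehicle mean on the log2 scale, and it did not pass (log2 fold change -0.59, SE 0.19, limma adjusted p = 0.14). The log2 fold change of Sdf2l1 was -0.37 (limma adjusted p = 0.15) without blebbistatin 1, smaller in size than that of Manf, and -0.79 (limma adjusted p = 0.025) without blebbistatin 2. Within each library, the ratio of Sdf2l1 to Hspa5 was 0.322, 0.563 and 0.451 with blebbistatin and 0.600, 0.594 and 0.584 with vehicle, and every blebbistatin ratio was the lower.

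The other ER chaperones included genes on both sides of the vehicle level, and none passed. Hsp90b1, the ER form of HSP90, had 766, 632 and 670.2 TPM with blebbistatin and 687, 699 and 709 TPM with vehicle, with the vehicle values inside the blebbistatin range. About 15.7% of its exon length overlaps other annotated genes, so part of its reads could belong to them. Dnajc3, an inhibitor of PERK and BiP partner, and Dnajb9, a J-domain protein that restrains IRE1, had log2 fold changes of -0.01 (SE 0.06) and 0.10 (SE 0.12). With the length and GC correction, Hsp90b1 stood at -0.14 and Dnajc3 at -0.13, neither past the threshold. Calr, a lectin chaperone and the ER member with the highest level, had 939.7, 896 and 908 TPM with blebbistatin and 994, 1005 and 994 TPM with vehicle. All blebbistatin values of Calr were below all vehicle values (log2 fold change -0.13, SE 0.04, limma adjusted p = 0.15). Canx, its membrane-bound relative, averaged 432 ± 38.9 TPM with blebbistatin and 384 ± 31.1 TPM with vehicle, with overlap (limma adjusted p = 0.28). The ratio of Calr to Canx was 1.98, 2.24 and 2.17 in blebbistatin libraries and 2.85, 2.55 and 2.43 in vehicle libraries.

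Creld2 and Manf, small stress-induced ER proteins that can be secreted, were low in all blebbistatin libraries without passing. Creld2 had 58.6, 70.2 and 57.6 TPM with blebbistatin and 86.7, 79.9 and 85.9 TPM with vehicle (log2 fold change -0.44, SE 0.09, limma adjusted p = 0.059). Manf had 153, 180.1 and 143 TPM with blebbistatin and 246, 257 and 204 TPM with vehicle (log2 fold change -0.57, SE 0.11, limma adjusted p = 0.059). Both passed when only protein-coding genes were tested, where 5 members and 0.703% of those genes were called lower and 2.17% higher, and without blebbistatin 2, where the values were -0.53 for Creld2 and -0.66 for Manf. The disulfide isomerases differed less. Pdia3 and Pdia4 had log2 fold changes of -0.05 (SE 0.05) and -0.08 (SE 0.05), with overlapping groups. Pdia6 averaged 264 ± 5.97 TPM with blebbistatin and 292 ± 2.05 TPM with vehicle, without overlap (limma adjusted p = 0.13).

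In the degradation machinery, which pulls misfolded proteins out of the ER, 0 of 6 tested members passed, where 1.82% of all tested genes did. An unadjusted p under 0.05 was found for 3 of them (Syvn1, Edem1 and Herpud1), and for 22.9% of all tested genes. Syvn1, the ubiquitin ligase HRD1, had 21.3, 29.1 and 20.6 TPM with blebbistatin and 35.7, 32.3 and 32.3 TPM with vehicle (log2 fold change -0.50, SE 0.13, limma adjusted p = 0.11). All blebbistatin values were lower, with blebbistatin 2 close to vehicle, and without that library the value was -0.65 (limma adjusted p = 0.016). Its partner Sel1l stood at 40.3 ± 2.73 TPM with blebbistatin and 40.3 ± 1.40 TPM with vehicle. The ratio of Syvn1 to Sel1l was 0.494, 0.773 and 0.514 with blebbistatin and 0.895, 0.772 and 0.827 with vehicle. Edem1, a lectin that targets glycoproteins for degradation, had 111, 109 and 106 TPM with blebbistatin and 86.5, 95.6 and 98.5 TPM with vehicle. It was higher in every blebbistatin library but did not pass (log2 fold change 0.22, SE 0.06, limma adjusted p = 0.12). Herpud1, an organizer of the ligase complex, and the derlins Derl1 and Derl2, membrane proteins of the same machinery, had log2 fold changes of -0.21, -0.16 and -0.23 with overlapping groups. Without blebbistatin 1 these were -0.12 for Herpud1, -0.09 for Derl1 and -0.10 for Derl2. Derl3 was listed at 0.217, 1.11 and 1.27 TPM with blebbistatin and 1.01, 1.50 and 0.861 TPM with vehicle. That corresponds to between 3 and 18 fragments per library, counting 300 aligned bases as 1 fragment, and no difference was detectable at this depth.

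**Figure D2:**
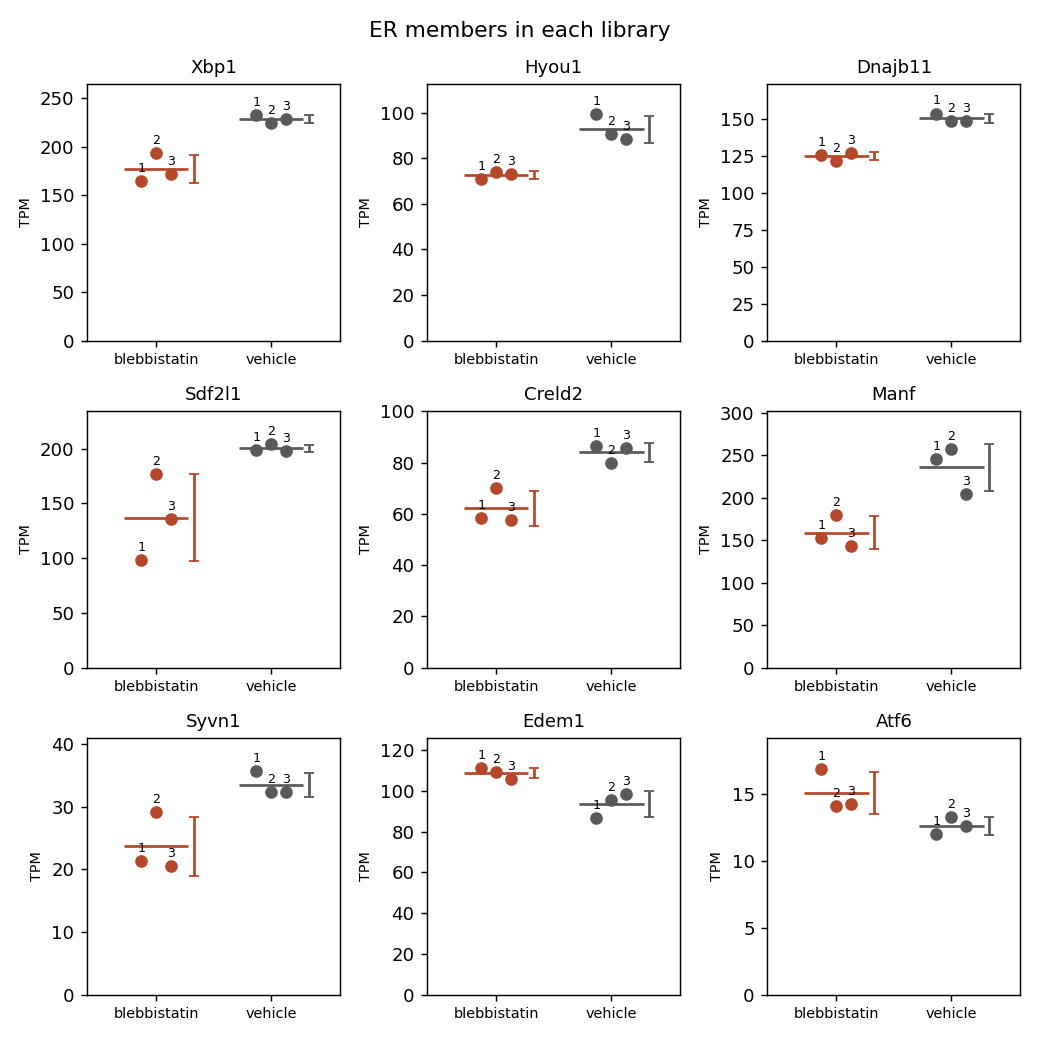
TPM of 9 ER members in each library, blebbistatin left and vehicle right, with library numbers beside the points, a line at the mean and a bar of 1 SD (n = 3). The 9 shown all come from the ER members whose groups do not overlap, as in 31.0% of all tested genes in either direction. Blebbistatin 2 is the blebbistatin library nearest to vehicle in Sdf2l1 (177 TPM) and Syvn1 (29.1 TPM).

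ER members with and without the promoter elements covered similar ranges. The 10 tested members with either element had a median log2 fold change of -0.14, ranging from -0.50 in Syvn1 to 0.17 in Canx, and 9 of the 10 were below 0. The 8 with a window and neither element had a median of -0.06, ranging from -0.59 in Sdf2l1 to 0.22 in Edem1, and 6 of the 8 were below 0. The difference between these sets was not tested, and the set with neither element includes Xbp1.

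Fold changes of the ER members moved with the base composition of their transcripts. Across 22 ER members the Pearson correlation of log2 fold change with GC content was -0.79 (Spearman -0.80), and with log2 transcript length it was 0.61. These points share the same 6 libraries, so the values are a description. Sdf2l1, Syvn1 and Creld2 have GC contents of 56.7%, 56.6% and 54.8%, while Dnajb9 and Canx have 40.6% and 42.2%. Over all tested genes, the median difference from the vehicle mean in genes of 55% GC and over was -0.26, -0.01 and -0.11 in blebbistatin 1, 2 and 3. It was 0.0 in each vehicle library, but each of these is part of that mean and so is drawn toward it. In genes under 45% GC the median difference was 0.23, 0.03 and 0.09 with blebbistatin. After a loess correction for length and GC content in each library, the correlation with GC over the ER members was -0.66. In that fit 7 members were lower, Hspa5, Hyou1, Xbp1, Dnajb11, Pdia6, Creld2 and Manf, and 0 higher, where 1.44% of all genes were called lower and 2.04% higher. Xbp1 then had a log2 fold change of -0.34, Hyou1 of -0.36, Dnajb11 of -0.28, Creld2 of -0.37 and Manf of -0.57. Sdf2l1 moved from -0.59 to -0.48 (limma adjusted p = 0.092) and Syvn1 from -0.50 to -0.43 (limma adjusted p = 0.076), neither past the threshold. Values of the genes that had been above vehicle came closer to 0, with 0.12 for Edem1, 0.12 for Atf6, 0.05 for Canx and -0.04 for Dnajb9. The ratios given above were taken without this correction. Those of Sdf2l1 to Hspa5, Syvn1 to Sel1l and Calr to Canx each set the gene of higher GC content over that of lower. The part of GC content in them was not tested.

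**Figure D3:**
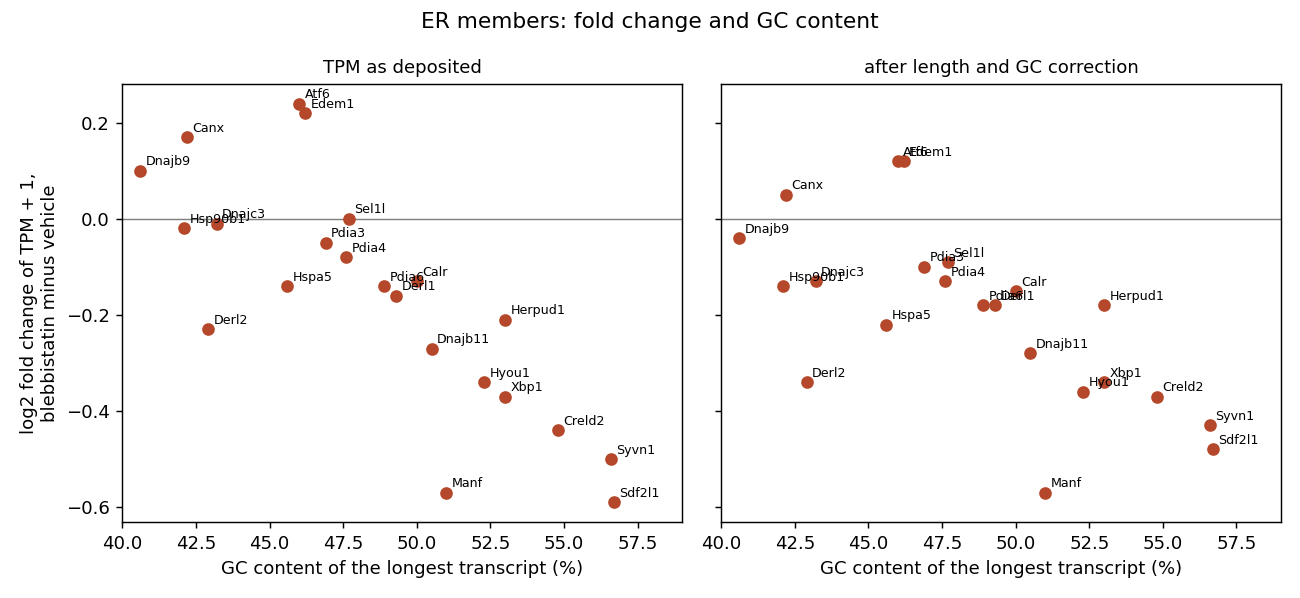
Log2 fold change of the 22 tested ER members, blebbistatin minus vehicle, against the GC content of the longest annotated transcript, from TPM as deposited (left) and after correction for length and GC content (right). Pearson correlations are -0.79 on the left and -0.66 on the right, and Manf stays at -0.57 in both.

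The blebbistatin libraries did not move equally. On the first principal component of all tested genes, with 42.8% of the variance, blebbistatin 1, 2 and 3 lay at -30.5, -0.23 and -14.54, while vehicle 1, 2 and 3 lay at 15.48, 13.36 and 16.43. Mitochondrially encoded transcripts took 9.14% of TPM in blebbistatin 1, 7.21% and 7.33% in blebbistatin 2 and 3, and 6.58% to 6.89% in vehicle, and their part in the results was not tested. Implied depth was 19500000 to 19800000 fragments with blebbistatin and 18500000 to 19900000 with vehicle. For Xbp1 the values against the vehicle mean were -0.46, -0.24 and -0.41, and for Syvn1 they were -0.63, -0.19 and -0.67, smallest in blebbistatin 2. Dnajb11 (-0.25, -0.30 and -0.25) and Hyou1 (-0.38, -0.32 and -0.34) differed little between the 3 libraries.

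**Figure D4:**
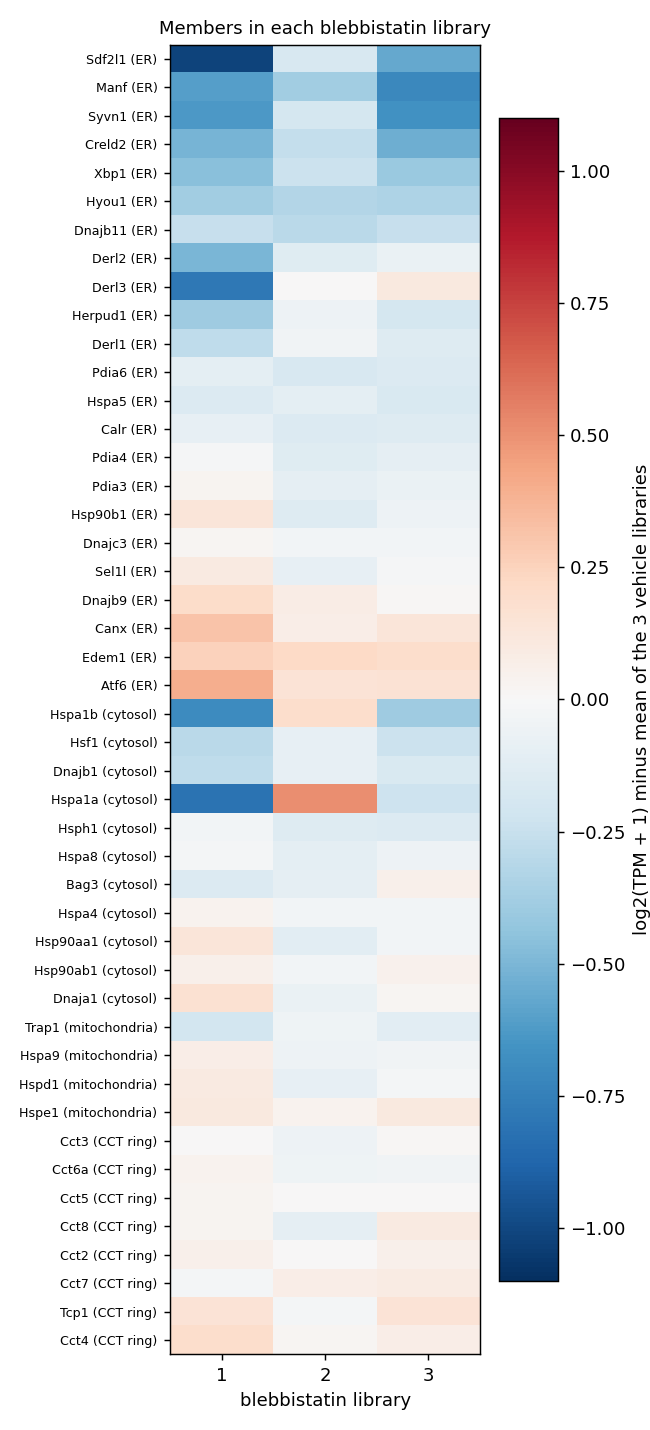
Log2(TPM + 1) of each of the 46 members in blebbistatin libraries 1, 2 and 3 minus the mean of the 3 vehicle libraries, grouped by compartment. Sdf2l1 stands at -1.02 in library 1 and -0.18 in library 2, Hyou1 is similar in all 3, and Hspa1a runs from -0.81 to 0.51.

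Cytosolic members stood near their vehicle levels, and 0 of 11 passed in either direction, where 1.82% of all tested genes did. Hsp90ab1, the constitutive HSP90 and the member with the highest level, had 3553, 3319.7 and 3516 TPM with blebbistatin and 3399, 3398 and 3403 TPM with vehicle. Its spread was wider with blebbistatin, and the groups overlapped (log2 fold change 0.03, SE 0.05, limma adjusted p = 0.76). The inducible form Hsp90aa1 had a log2 fold change of -0.00 (SE 0.07), and the ratio of Hsp90ab1 to Hsp90aa1 was 3.76 ± 0.223 with blebbistatin and 3.68 ± 0.105 with vehicle. Hspa8, the constitutive HSP70, averaged 2358 ± 72.3 TPM with blebbistatin and 2467 ± 43.9 TPM with vehicle (limma adjusted p = 0.40). Annotated copies with at least 95% identity over 300 bases or more were annotated for Hspa8, Hsp90aa1, Dnaja1, Derl1 and Hspd1, and those of Hspa8 held 8.12% of the summed level, so reads could have been split between them. Hspa4 and Hsph1, exchange factors of the HSP110 type, had values of -0.00 (SE 0.05) and -0.11 (SE 0.06), and Dnaja1, a J-domain partner of HSP70, had 0.04 (SE 0.07).

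Hsf1 and Dnajb1 were the 2 of 11 cytosolic members whose groups did not overlap, both lower with blebbistatin and neither past the threshold. Of all tested genes 13.0% were lower without overlap and 18.0% were higher without overlap. Hsf1, the regulator of heat shock genes, had 34.5, 40.2 and 36.2 TPM with blebbistatin and 43.8, 42.6 and 42.2 TPM with vehicle (log2 fold change -0.21, SE 0.07, limma adjusted p = 0.16). Dnajb1, a heat-inducible J-domain protein, averaged 69.0 ± 4.66 TPM with blebbistatin and 78.2 ± 0.403 TPM with vehicle (log2 fold change -0.18, SE 0.06, limma adjusted p = 0.17). In both genes blebbistatin 2 was the closest to vehicle.

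The heat-inducible HSP70 genes were at low levels in these cells. Hspa1a had 0.672, 3.16 and 1.50 TPM with blebbistatin and 1.97, 1.80 and 2.00 TPM with vehicle, or 18 to 88 fragments per library. Hspa1b had 2.02, 4.56 and 2.73 TPM with blebbistatin and 4.19, 4.30 and 3.21 TPM with vehicle. Both were high in blebbistatin 2 and low in blebbistatin 1, so in both the blebbistatin range enclosed that of vehicle (limma adjusted p = 0.76 and 0.46). The copies are 99.2% identical over 2201 bases, so the split of reads between them is uncertain. Bag3, the HSP70 co-chaperone induced by HSF1, had 3.25, 3.40 and 3.91 TPM with blebbistatin and 3.72, 3.87 and 3.54 TPM with vehicle, with overlap. The heat shock element, which is GAA, TTC and GAA in a row with 2 bases between each, was searched on both strands and found in 1 of 7 cytosolic and 2 of 3 mitochondrial members with a window, Hsph1, Hspd1 and Hspe1, against 0.603% of all windows. Only exact matches were counted, so a gene without one may still carry an imperfect element. The Hsph1 match lay 36 or 15 bases after the start, depending on the window, on the strand opposite to the gene. The matches are shown because 1 pair is shared by neighbouring genes. Capitals mark the fixed letters, and the pair overlaps on opposite strands.
Hspe1 and Hspd1, element on the Hspe1 strand: GAAccTTCcgGAA
Hspe1 and Hspd1, element on the Hspd1 strand: GAAggTTCtaGAA
Hsph1: GAActTTCcaGAA

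Mitochondrial chaperones did not differ beyond the threshold in any of 4 members, with 0 at an unadjusted p under 0.05. The shares over all tested genes were 1.82% and 22.9%. Hspd1, the HSP60 chamber and the highest of them, had 899, 787 and 826 TPM with blebbistatin and 814, 851 and 848 TPM with vehicle. Hspe1, the HSP10 lid of that chamber, is transcribed from the neighbouring start in the opposite direction and had 625, 592 and 623 TPM with blebbistatin and 559, 583 and 589 TPM with vehicle. Hspe1 was higher in every blebbistatin library (log2 fold change 0.09, SE 0.05, limma adjusted p = 0.30) and Hspd1 was not (log2 fold change -0.00, SE 0.06). After the length and GC correction Hspe1 also stood at -0.00. The ratio of Hspd1 to Hspe1 was 1.44, 1.33 and 1.33 with blebbistatin and 1.46, 1.46 and 1.44 with vehicle. The exons of this pair overlap over 4.2% of Hspd1 and 7.6% of Hspe1, and the kit does not mark strand. Trap1, a mitochondrial HSP90, had 149, 166 and 158 TPM with blebbistatin and 170.4, 171 and 174 TPM with vehicle, all lower with blebbistatin (log2 fold change -0.12, SE 0.05, limma adjusted p = 0.23). Hspa9, the mitochondrial HSP70, averaged 417 ± 20.8 TPM with blebbistatin and 419 ± 6.14 TPM with vehicle.

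The CCT ring, whose best-known clients are actin and tubulin, had the narrowest range of log2 fold changes of the 4 compartments. Of its 8 subunits 0 passed and 0 had an unadjusted p under 0.05, against 1.82% and 22.9% of all tested genes. Their log2 fold changes lay between -0.02 and 0.09, with a median of 0.02 that was -0.02 with median-ratio scaling and -0.04 with the length and GC correction. Cct6a, the subunit with the highest level, had 694, 651 and 654 TPM with blebbistatin and 686, 682 and 656 TPM with vehicle. Cct4, the lowest, had 262, 233 and 241 TPM with blebbistatin and 229, 233 and 227 TPM with vehicle, and all blebbistatin values were above vehicle, blebbistatin 2 by a small margin (log2 fold change 0.09, SE 0.06, limma adjusted p = 0.36). Tcp1, the alpha subunit, had 479, 425 and 481 TPM with blebbistatin and 430.3, 434 and 433 TPM with vehicle, with overlap (log2 fold change 0.09, SE 0.06, limma adjusted p = 0.37). Exons of other genes overlap 16.9% of Tcp1 and 15.3% of Cct6a.

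Although each subunit fills the same number of places in the ring, their transcript levels differed. By mean TPM their order was Cct6a, Cct2, Cct5, Cct7, Cct8, Tcp1, Cct3 and Cct4 in blebbistatin and in vehicle libraries alike. In vehicle libraries Cct7 and Cct8 were the only neighbours whose ranges overlapped. In blebbistatin libraries Cct6a and Cct2, Cct7 and Cct8, and Cct8 and Tcp1 overlapped. The ratio of Cct6a to Cct4 was 2.65, 2.79 and 2.72 with blebbistatin and 2.99, 2.93 and 2.89 with vehicle, lower in every blebbistatin library. The median coefficient of variation over the subunits was 3.91% with blebbistatin and 1.83% with vehicle, and over the ER members it was 7.77% and 4.16%.

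Summed over its members, the ER compartment was lower in every blebbistatin library, with 4748, 4591 and 4541 TPM, than in any vehicle library, with 5001, 5078 and 5031 TPM. The ratio of the means was 0.918. The sums of the cytosolic members (7548 ± 301 TPM with blebbistatin, 7611 ± 78.1 TPM with vehicle), the mitochondrial members (2026 ± 83.9 TPM with blebbistatin, 2006 ± 43.8 TPM with vehicle) and the CCT ring (3876 ± 107 TPM with blebbistatin, 3803 ± 30.0 TPM with vehicle) overlapped. All 46 members together made up 1.81% of TPM with blebbistatin and 1.85% with vehicle. Several lists of related genes outside the 46, described below, also had lower sums without overlap. ER folding and oxidation genes had 2055 to 2119 TPM with blebbistatin, against 2208 to 2281 TPM with vehicle. Cytosolic co-chaperones had 3661 to 3695 TPM, against 3770.1 to 3829.5 TPM. Mitochondrial import genes had 2267 to 2579 TPM, against 2723 to 2761 TPM. Degradation and translocon genes were also lower, while response sensors and CCT cofactors overlapped. All of these sums are dominated by their most abundant members and were not tested.

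**Figure D5:**
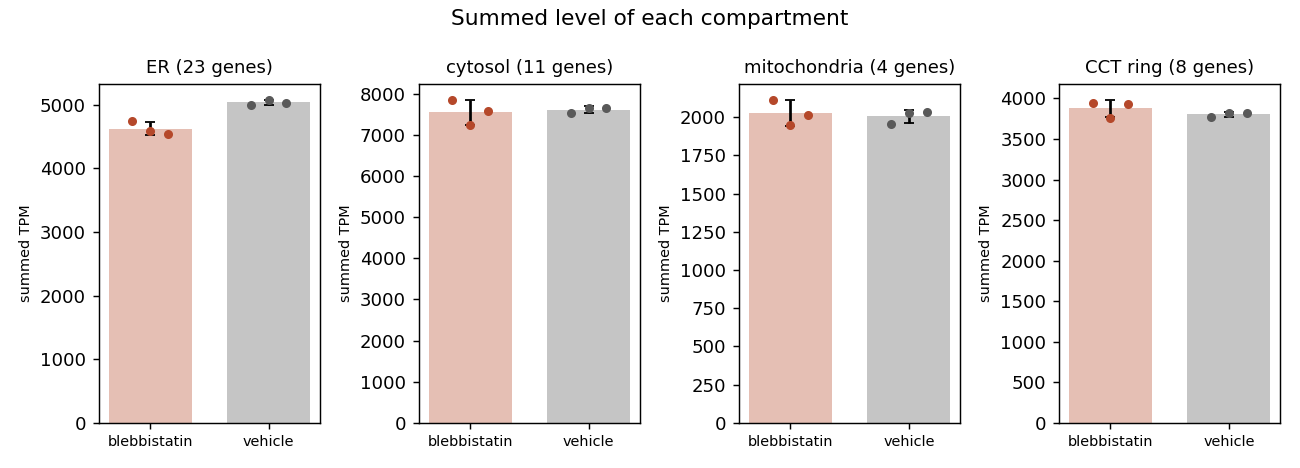
Summed TPM of the members of each compartment in each library (points), with bars for the mean and lines for 1 SD (n = 3), blebbistatin left and vehicle right. The ER sums of 4541 to 4748 TPM with blebbistatin lie below the 5001 to 5078 TPM with vehicle, and the other compartments overlap.

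Genes of the same pathways outside the 46 showed few changes past the threshold. Of all tested genes 1.82% were called and 22.9% had an unadjusted p under 0.05, the shares to set beside the counts of each list. Of 27 tested genes of ER folding and oxidation 0 passed, 12 had an unadjusted p under 0.05, and the median log2 fold change was -0.13. Their most abundant gene was Ppib, an ER prolyl isomerase, at 328 ± 6.08 TPM with blebbistatin and 341 ± 7.60 TPM with vehicle. Of 32 genes of ER-associated degradation and the translocon 0 passed and 3 had an unadjusted p under 0.05 (median -0.02), with Vcp, the extracting ATPase, at 406 ± 3.42 TPM with blebbistatin and 414 ± 3.23 TPM with vehicle. Of 35 cytosolic co-chaperones 0 passed and 9 had an unadjusted p under 0.05 (median -0.00), and Stip1, which links HSP70 to HSP90, stood at 354 ± 11.7 TPM with blebbistatin and 362 ± 2.95 TPM with vehicle. Of 14 prefoldin and CCT cofactor genes 0 passed and 2 had an unadjusted p under 0.05 (median 0.08), with Tbca, a tubulin cofactor, at 217 ± 19.3 TPM with blebbistatin and 196 ± 4.91 TPM with vehicle. Of 28 genes listed for mitochondrial import, co-chaperones and proteases, with Hspa14 shared with the cytosolic list, 0 passed, 12 had an unadjusted p under 0.05, and 23 values were below 0 (median -0.11). Over all tested genes 5999 of 13372 values were below 0. Dnajc15, a J-domain protein of the import motor, stood at 286 ± 21.0 TPM with blebbistatin and 307 ± 7.74 TPM with vehicle.

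Of 7 CD8 T cell markers, 1 was called: Thy1, a surface glycoprotein of T cells, fell to 1169.7 ± 36.0 TPM with blebbistatin, against 1416 ± 21.4 TPM with vehicle (log2 fold change -0.28, limma adjusted p = 0.038). Beside this and the marker counts below, 0.426% of all tested genes were called lower and 1.40% higher. Markers of other cells were examined because other cells, plasma cells above all, differ from T cells in their content of ER chaperones. The plasma cell list summed to 572 to 602 TPM with blebbistatin and 597 to 606 TPM with vehicle, with 0 of 4 tested genes called and Tnfrsf17 listed at 0 in all 6 libraries. Most of that sum was Ighm, at 477 ± 12.6 TPM with blebbistatin and 500.0 ± 7.77 TPM with vehicle. Irf4 followed, at 103 ± 5.13 TPM with blebbistatin and 90.8 ± 3.41 TPM with vehicle. Sdc1 averaged 2.09 ± 0.813 TPM with blebbistatin and 1.59 ± 0.195 TPM with vehicle. Jchain, not tested, averaged 1.11 ± 0.330 TPM with blebbistatin and 0.763 ± 0.333 TPM with vehicle. Of the 4 tested genes 2 had log2 fold changes above 0 and 2 below. Of 7 B cell markers 3 were tested and 2 rose, H2-Eb1 and Igkc, and the list summed to 50.2 to 56.2 TPM with blebbistatin and 28.2 to 30.6 TPM with vehicle, while Ms4a1 and Pax5 stayed under 1 TPM in every library. Of 6 platelet markers 5 were tested and 4 rose, Pf4, Ppbp, Itga2b and Treml1, with sums of 109 to 128 TPM with blebbistatin and 49.3 to 58.5 TPM with vehicle. All of these marker calls were lost without blebbistatin 3, and those of Thy1, H2-Eb1, Igkc, Pf4, Itga2b and Treml1 also without any 1 vehicle library (limma adjusted p of 0.059 to 0.17). Such fits called only 3 to 13 of all tested genes. The call of Thy1 was also lost with the length and GC correction (log2 fold change -0.18, limma adjusted p = 0.066). In the myeloid, erythroid, CD4 T cell and NK cell lists 0 genes were called, and the summed ranges of the first 3 overlapped between groups. Most of the myeloid sum was Cst3, at 71.6 ± 15.1 TPM with blebbistatin and 83.7 ± 0.429 TPM with vehicle. Cd68, also myeloid, was higher in every blebbistatin library, at 9.25 ± 0.658 TPM against 6.14 ± 0.938 TPM with vehicle (log2 fold change 0.53, limma adjusted p = 0.084). The remaining myeloid genes were below the level for testing. The part of these markers in the ER results was not tested.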

How the data were processed

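RNA-seq tables of 6 libraries were used, 3 blebbistatin and 3 vehicle. The tools named in the submitters' processing notes are StringTie 1.3.4, HISAT2 2.1.0 and DESeq2 1.22.2, and the build is mm10. Per the file headers, the authors deposited for each gene a TPM value, an FPKM value and a mean coverage (signal) value. From these, limma 3.58.1 in R 4.3.3 was run with a trend on log2(TPM + 1) for the 13372 genes whose mean reached 1 TPM, with Benjamini-Hochberg adjustment at 0.05. The fold change understates changes of low genes. Depth is not given as counts. It was implied from the ratio of coverage to FPKM, with 300 aligned bases as 1 fragment, the commonest value among single-exon genes of low level in all 6 libraries. Fragments so implied cover counting error only. For 12 to 14 genes per library at more than 1 place, the deposited rows hold joined coverage values. Transcript length, GC content, positions and exon overlaps came from GENCODE annotation of GRCm38.

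Values in every library are given for called members, for the most abundant and the 2 most changed members of a compartment, for the regulators and Bag3, copy pairs, neighbouring pairs and untested members. From each pathway list up to 3 called genes are named, or the most abundant where none was called. Hspa5, Hsp90b1, Creld2, Syvn1 and Edem1 were shown in full, and Ern1, Atf4 and Ddit3 named, after their values were seen. Members and lists were chosen with earlier results of these data known. Alternatives changed the pseudocount, the minimum, the unit, the scaling, the variance model, the biotypes, the base-composition correction and the libraries. An exact permutation test of 3 against 3 libraries cannot go below p = 0.1 and was not used.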

Additional observations from a re-analysis of the deposited data

How the results depend on the processing

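Of 850 alternative values for the 45 tested members, 10 newly passed and 30 no longer passed (all of Xbp1, Hyou1 and Dnajb11). The sign changed in 61, over 20 members, none called in either fit, among them Hspa1a at 0.14 without blebbistatin 1 and Tcp1 at -0.04 and Dnaja1 at -0.10 with the length and GC correction. For all genes, 244 calls became 49 with no minimum level, 160 without trend, 464 with the length and GC correction and 3 to 1090 with 1 library left out. For the members, 3 calls became 0 with no minimum level, quantile normalization or no trend (15, 12 and 12 with an unadjusted p under 0.05), 7 with the length and GC correction, 5 with protein-coding genes only and 0 to 7 with 1 library left out. The ER median of -0.14 was -0.15 from FPKM, -0.19 with median-ratio scaling, -0.10 with quantile normalization, -0.18 with the length and GC correction and -0.15 to -0.12 with 1 library left out. The cytosolic median of -0.07 was -0.04 at a minimum mean of 5 TPM, -0.09 to -0.04 with 1 library left out, -0.11 with median-ratio scaling and -0.10 with the length and GC correction. The CCT median was -0.02, 0.06 and -0.04, and the mitochondrial median -0.05, 0.06 and -0.07, with median-ratio scaling, quantile normalization and the length and GC correction, so the sign of both depends on the scaling. With 1 library left out the mitochondrial median lay between -0.05 and 0.03. The cause of these shifts was not tested.

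Libraries with the same replicate number showed no shared deviation from their group means, with correlations of 0.01, -0.04 and -0.03. The labels do not say what the numbers stand for, so these values cannot show if the samples were paired by design. With the replicate number as a block, limma called 0 genes and 0 members (2628 genes and 11 members with an unadjusted p under 0.05). With the block and the length and GC correction it called 0 genes and 0 members (2895 and 21 with an unadjusted p under 0.05), and the medians were -0.18 for the ER, -0.10 for the cytosol and -0.04 for the CCT ring. Depth limits Derl3, Hspa1a, Hspa1b and Bag3, which had few fragments.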
